A study of Mus musculus with 6 samples.

Results

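The Sox9 region is described here from a list of methylated DNA peaks, made by MBD-seq of primary mouse chondrocytes. Sox9 region means the stretch of chromosome 11 from 111200000 to 113600000 (mm10/GRCm38), which holds the Sox9 gene and the gene-poor sequence on both of its sides. Members were all peaks of the list with their midpoint in that window, 113 of 84111 peaks in all and of 5960 on chromosome 11. The choice was by position and used no peak values, but it was made with earlier results of these data known. In MBD-seq, sonicated DNA rich in methylated CpG is captured with the methyl-binding protein MBD2 and sequenced. A peak thus marks a stretch of captured, CpG-methylated DNA. Sequence with few CpG can lack a peak whatever its methylation. CpG were counted only in promoters, so a missing or low peak below cannot be read as an absence of methylation.

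The series holds 6 cultures of knee articular cartilage chondrocytes from mice of postnatal day 3 to 5. Of these, 3 are labelled Control with the genotype Dnmt1 flox, and 3 are labelled cKO (conditional knockout) with Prx1-Cre;Dnmt1 flox/flox. Both groups thus carry floxed Dnmt1, the gene of the methyltransferase that copies CpG methylation onto newly made DNA; the labels do not say whether the controls carry 1 or 2 floxed alleles. Prx1-Cre is active in early limb mesenchyme, and any cell of the culture outside that lineage would keep Dnmt1. The stated aim was to learn how Dnmt1 acts on gene expression through methylation, but the list was called on 3 merged datasets whose group its peak names do not give. No value below belongs to a sample, there are no replicates, and Control and cKO could not be compared. A DNA peak list cannot be checked against cell type markers. In such a list, methylation in a few of the cells and weaker methylation in all of them cannot be told apart.

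Sox9 encodes a transcription factor of the SoxE family that commits mesenchymal cells to cartilage and switches on cartilage genes such as Col2a1 and Acan. The gene is short and stands alone in a desert, and many of its enhancers lie far off, most of them on the side of Kcnj2, the potassium channel gene upstream. In people, rearrangements on that side of SOX9 cause campomelic dysplasia, a skeletal disorder, although the gene itself is intact. CpG methylation of an enhancer or promoter usually goes with its inactivity, while the bodies of transcribed genes are commonly methylated.

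Sox9 itself (gene 20682, 112782210 to 112787757, 5548 bp) held no peak, neither in its body nor within 1 kb of either end. It lay in a peak-free stretch of 24.1 kb. The median between neighbouring peaks on chromosome 11 was 6.93 kb, but a stretch that holds a whole gene is more likely to be a long one. Around it, peaks were spread unevenly: 40 lay on the Kcnj2 side, 28 between Sox9 and Slc39a11, the zinc transporter gene downstream, and 45 inside Slc39a11. The peaks outside genes were narrower than those elsewhere on chromosome 11 outside genes, with a median width of 327 bp against 415 bp.

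The sequences that most directly join these peaks to genes are the promoters of long noncoding RNA (lncRNA) genes in the window. The RefSeq promoter table (GRCm38.p6) gives the 250 bases before and 50 bases after a gene start and matched 18 of the 22 genes that touch the window, with 19 promoters. Sox9, Gm11675, Gm30562 and Gm51926 were not matched. A peak overlapped 4 of the 19 promoters by at least 1 bp (21.1%), where 4.26% of all 24388 promoters on covered sequence were overlapped. Covered sequence runs from the first to the last peak of each chromosome of the list as used here. Chromosomes 7, 8, 9, X and Y and the rest of chromosome 6 were not analysed here, so counts over all genes, promoters and deserts are for part of the genome. Those of LOC115487747 and Gm39461 are shown first, those of Gm39505 and Gm51928 next, and below them are those of BC006965 and Gm11681, the promoters nearest to Sox9 on either side, which no peak overlapped. Each is written 5′ to 3′ on the strand of its gene, and capitals mark CpG, the dinucleotide that Dnmt1 methylates (letters CG, the same on both strands). At least 1 CpG stood in 95.1% of all promoters of this length.

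LOC115487747 (chr11:113173034-113173333, minus strand): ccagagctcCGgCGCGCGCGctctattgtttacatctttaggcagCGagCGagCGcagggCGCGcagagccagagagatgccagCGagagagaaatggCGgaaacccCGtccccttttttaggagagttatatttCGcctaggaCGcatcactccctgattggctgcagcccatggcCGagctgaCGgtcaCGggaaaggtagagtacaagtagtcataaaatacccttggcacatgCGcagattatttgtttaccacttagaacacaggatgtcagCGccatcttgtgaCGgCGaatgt
Gm39461 (chr11:112157114-112157413, plus strand): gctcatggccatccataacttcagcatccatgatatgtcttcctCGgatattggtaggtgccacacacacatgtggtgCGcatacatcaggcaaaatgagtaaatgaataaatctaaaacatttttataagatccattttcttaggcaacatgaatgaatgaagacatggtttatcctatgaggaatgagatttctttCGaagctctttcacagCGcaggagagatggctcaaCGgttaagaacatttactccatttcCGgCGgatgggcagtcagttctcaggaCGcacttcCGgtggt
Gm39505 (chr11:113219231-113219530, minus strand): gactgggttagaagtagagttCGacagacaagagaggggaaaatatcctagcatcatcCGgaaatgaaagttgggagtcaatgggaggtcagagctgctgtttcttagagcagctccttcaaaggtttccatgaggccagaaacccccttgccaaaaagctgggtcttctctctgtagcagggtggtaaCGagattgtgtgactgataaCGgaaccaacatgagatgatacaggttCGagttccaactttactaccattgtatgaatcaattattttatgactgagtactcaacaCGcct
Gm51928 (chr11:113458518-113458817, plus strand): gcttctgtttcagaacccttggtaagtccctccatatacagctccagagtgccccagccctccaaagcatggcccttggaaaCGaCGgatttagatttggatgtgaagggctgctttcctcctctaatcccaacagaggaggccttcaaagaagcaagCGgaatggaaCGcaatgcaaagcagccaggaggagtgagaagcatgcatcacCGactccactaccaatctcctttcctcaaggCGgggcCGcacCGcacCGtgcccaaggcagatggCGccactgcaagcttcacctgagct
BC006965 (chr11:112711307-112711606, minus strand): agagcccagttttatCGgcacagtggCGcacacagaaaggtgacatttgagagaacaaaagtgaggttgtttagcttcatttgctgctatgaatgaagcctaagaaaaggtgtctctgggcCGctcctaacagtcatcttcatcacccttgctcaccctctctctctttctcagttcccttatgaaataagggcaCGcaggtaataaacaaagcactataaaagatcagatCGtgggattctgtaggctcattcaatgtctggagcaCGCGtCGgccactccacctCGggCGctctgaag
Gm11681 (chr11:112798959-112799258, minus strand): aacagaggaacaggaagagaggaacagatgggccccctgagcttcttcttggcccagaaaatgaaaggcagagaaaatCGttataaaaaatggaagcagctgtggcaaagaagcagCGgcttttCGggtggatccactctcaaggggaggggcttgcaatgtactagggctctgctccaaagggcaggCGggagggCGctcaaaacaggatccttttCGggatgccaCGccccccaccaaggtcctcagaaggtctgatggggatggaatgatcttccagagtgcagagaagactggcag

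The LOC115487747 promoter was the richest in CpG of the 19, with 22, where the median of the window was 6 and that of all promoters 7. All of its 300 bases lay inside a peak of 460 bp (113173028 to 113173487). That peak had a fold enrichment of 18.6, which is the ratio of reads at the summit to the background that the authors' peak caller expected there. It stood 385 kb from Sox9. Among all covered promoters with at least 15 CpG, a minimum chosen after these values were seen, 161 of 8712 (1.85%) were overlapped by a peak, against 5.61% of promoters with fewer. The transcript starts inside 2610035D17Rik, a longer lncRNA gene of 158 kb, whose own promoter held 13 CpG and lay 4.18 kb from the nearest peak.

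The other 3 promoters were covered in part. At Gm39461 a peak of 305 bp with a fold of 12.2 took in 214 bases of the promoter and 7 of its 9 CpG. In Gm51928, which lies within Slc39a11, a peak of 181 bp with a fold of 7.87 took in 8 of 10 CpG. The promoter of Gm39505 had 2 of its 6 CpG under the edge of a peak of 505 bp whose fold, 4.01, was among the 3 lowest of the window. By contrast, BC006965 with 10 CpG and Gm11681 with 7 were free of peaks, and the nearest peaks were 6.63 kb and 0.248 kb away. Promoters with and without a peak thus overlapped in their CpG number, and 4 of 19 promoters is too few to say more.

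**Figure D1:**
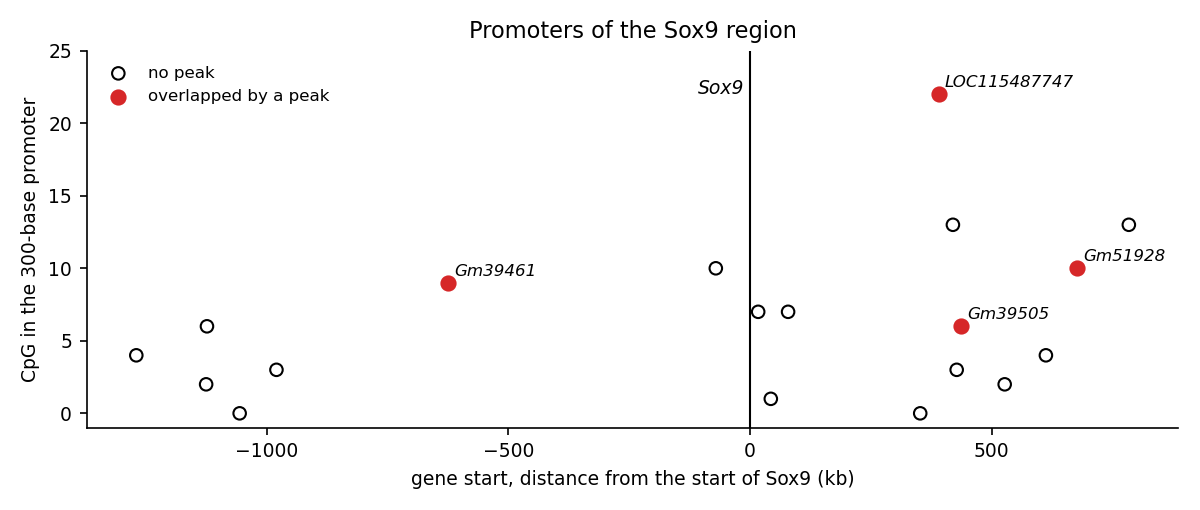
CpG number of the 19 promoters of 300 bases in the Sox9 region (y axis) against the distance of the gene start from the start of Sox9 (x axis, kb), with filled points for the 4 promoters that a peak overlapped and open points for the others. LOC115487747 has the most CpG, 22, and the promoters nearest to Sox9 are open.

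Nearest to Sox9 on the Kcnj2 side, a peak of 329 bp (112775125 to 112775453) ended 6.76 kb before the gene, with a fold of 11.9 and a pileup of 87 reads. Pileup here is the number of reads stacked at the summit, recovered from the deposited fold and p-value. The next 4 stood 32.9, 37.5, 50.5 and 61.9 kb away, with folds of 9.36, 25.5, 12.5 and 9.63. Of these 5, the peak at 37.5 kb was the strongest, with 187 reads over 460 bp.

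On the other side, the nearest peak (112799506 to 112799641) began 11.7 kb beyond the gene, just outside the lncRNA gene Gm11681. It was only 136 bp wide with a fold of 6.65 on 48 reads, where the lowest pileup of the window was 44. The second, at 49.2 kb, had the same fold and pileup over 114 bp. Peaks at 70.7 and 80.7 kb were stronger, with folds of 28.8 and 20.6, and the one at 90.5 kb had a fold of 6.52 with 277 reads over a background of 41.6. The nearest peaks on the 2 sides therefore differed in strength, although within 100 kb the numbers were alike, with 7 and 6 peaks.

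An absence of peaks is common for a gene of this size. Of 15761 protein-coding genes on covered sequence, 64.7% had at least 1 peak midpoint in the body and 21.8% had one within 1 kb of an end. Among the 1246 genes within 1.25 times the length of Sox9, 55.5% had no overlapping peak, and 31.6% were at least as far from one as Sox9. Of the peak-free stretches of chromosome 11, 23.2% were at least as long as the one that holds Sox9. That share counts every stretch alike, although long ones are more likely to hold a gene.

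The other Sox genes and known Sox9 targets were set beside it, 29 genes in all with Sox9, of which 21 lay on covered sequence. Sox5 and Sox6, the partners of Sox9 in cartilage, were not analysed here, nor were Sox1, Acan, Comp, Mia, Wwp2 and Scrg1. Of the 7 other Sox genes only Sox10, a SoxE gene of neural crest and glia, had a peak in its body. The rest lay between 1.3 kb (Sox4) and 25.3 kb (Sox17) from the nearest peak, and Sox8, which like Sox9 and Sox10 is a SoxE gene, lay 3.82 kb away. Sox9 thus falls inside the range of its family.

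Of the 13 cartilage genes, 8 had a peak in the body. Together with the Sox genes other than Sox9, of which only Sox10 had a peak, this made 9 of 20 genes (45.0%). The share of all protein-coding genes was 64.7%, but these lists are short and their genes differ in length. The Sox genes were only 1.80 to 9.58 kb long. Col2a1, the gene of the main collagen of cartilage, held 5 peaks, among them one within 1 kb of each end. The peak beside its start coordinate had a fold of 7.60 and the one beside its end coordinate a fold of 8.19. Chad, which encodes the matrix protein chondroadherin, had the only other gene-end peak, with a fold of 10.2. Col2a1 and Chad made 2 of the 13 cartilage genes, where 21.8% of protein-coding genes had a peak within 1 kb of an end. No peak was counted in the bodies of Col9a1, Col9a2, Col9a3 and Col11a1, which encode minor fibrillar and fibril-associated collagens, or of Snorc, which encodes a cartilage proteoglycan.

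Along the region, the Kcnj2 side held 25.3 peaks per Mb, the stretch between Sox9 and Slc39a11 held 61.3, and the part of Slc39a11 in the window 127. The rest of chromosome 11 had 32.3 peaks per Mb outside genes and 64.6 inside genes. Outside genes alone, the Kcnj2 side held 24.1 and the stretch between Sox9 and Slc39a11 held 53.2, the latter on 13 peaks. In bins of 100 kb the median was 3 peaks for the 24 bins of the window and 4 for the rest of the chromosome (quartiles 2 and 7). Of the 15 bins wholly on the Kcnj2 side, 10 had at most 2 peaks. Elsewhere on the chromosome 36.7% of bins were that sparse, but those bins include genes, which fill 55.5% of that sequence. Where the rest of the chromosome lay over 100 kb from protein-coding genes, it had 23.6 peaks per Mb. Such sequence of the window, on both sides of Sox9, had 30.0. The 25.3 of the Kcnj2 side also counts sequence nearer to protein-coding genes. The 1 empty bin ran from 111700000 to 111800000 and holds Gm11677, a predicted protein-coding gene.

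**Figure D2:**
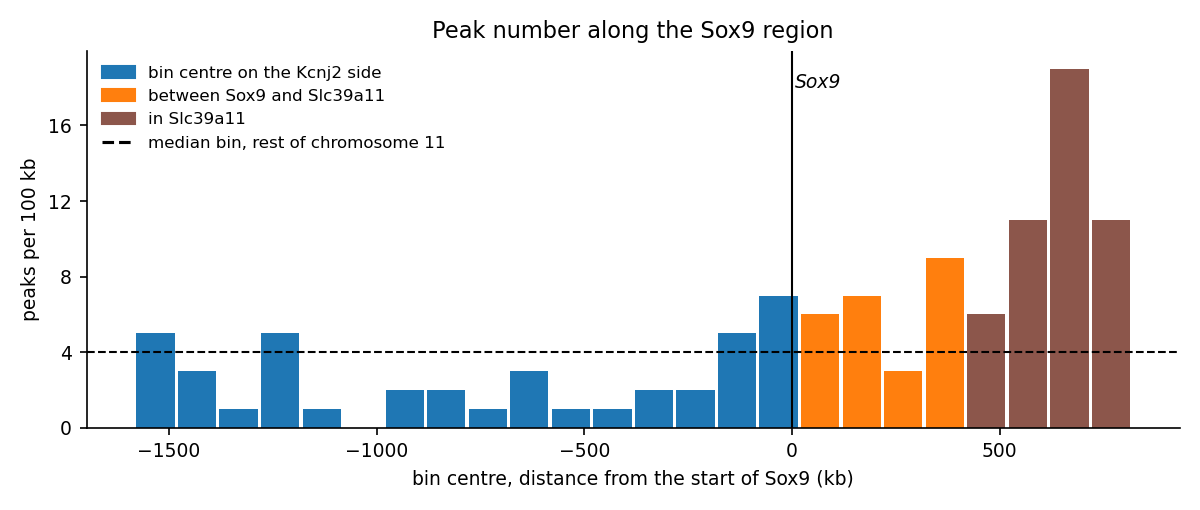
Number of peaks in each 100 kb bin (y axis) against the distance of the bin centre from the start of Sox9 (x axis, kb), coloured by whether the bin centre lies on the Kcnj2 side, between Sox9 and Slc39a11 or in Slc39a11. The dashed line is the median bin of the rest of chromosome 11, genes included, 4 peaks. Most bins of the Kcnj2 side lie below it, and the fullest bin, with 19 peaks, lies in Slc39a11.

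Within the Kcnj2 side, peaks gathered near Sox9. The last 200 kb before the gene held 12 peaks, and the 1.38 Mb of the window beyond held 28, or 20.3 per Mb. A like number, 11, fell in the 200 kb after the gene. Among 447 other edges of gene deserts, defined as intervals of at least 1 Mb between named protein-coding genes, the median was 5 peaks in 200 kb (quartiles 3 and 8), and 42 edges (9.40%) had 12 or more. With only the peaks of −log10 q of at least 100, these counts were 3, 12 and 4, and the density near Sox9 on the Kcnj2 side was 15 peaks per Mb against 8.68 beyond.

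The 3 longest stretches without a peak also lay on the Kcnj2 side. One of 203 kb (111613272 to 111816300) began 966 kb from Sox9 and spans the lncRNA gene Gm30219, Gm11677 and the start of Gm30337. Another of 195 kb (112203484 to 112398326) lay 384 kb from Sox9 and the last, of 140 kb (112017076 to 112157199), 625 kb away, and neither holds a gene of the table. They ranked 33, 34 and 87 among the 5959 stretches of the chromosome. Neighbouring peaks stood a median of 25.8 kb apart on the Kcnj2 side, 9.44 kb between Sox9 and Slc39a11 and 4.57 kb in Slc39a11.

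The strongest single peak of the region lay inside the desert. At 111855248 to 111856827, 925 kb from Sox9 and outside any gene, it had the highest fold (47.6), the greatest width (1580 bp) and the highest −log10 q (459) of all members, on a pileup of 350 reads. No other member was wider than 1 kb. The gene before it is the lncRNA gene Gm30337. The next by fold were peaks at 113341784 to 113342469 in Slc39a11 and Gm51926 (35.0), at 111215579 to 111216186 (34.3), at 111583305 to 111584016 (33.6) and at 113394549 to 113395043 in Slc39a11 and Gm42094 (31.9). The 3 of these 5 that lay outside genes stood between 925 and 1566 kb from Sox9, all on the Kcnj2 side.

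By width the next members were peaks of 967, 852 and 804 bp in Slc39a11 and one of 959 bp on the pseudogene Gm11675, 1505 kb from Sox9. The last of these ran from 111276039 to 111276997, and Gm11675 from 111276033 to 111276994, so the peak covered nearly the whole pseudogene and little else. It had a fold of 20.6 on a pileup of 202 reads. Pseudogenes of this kind are decayed copies of genes, and reads of the copy and its parent can be hard to place.

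At the low end, the 3 weakest folds belonged to peaks with a high background. They were 3.74 at 112451544 to 112451648, 4.01 at the Gm39505 promoter and 5.52 at 111221110 to 111221747. The last had the highest pileup of the region, 838 reads, over a background of 151, and −log10 q was 325, the third highest of the region. Its neighbour at 111222249 to 111222860 had 357 reads over 63.1. Second by −log10 q was the peak at 111215579 to 111216186 (333), and the next after these lay in Slc39a11 (304 and 291).

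**Figure D3:**
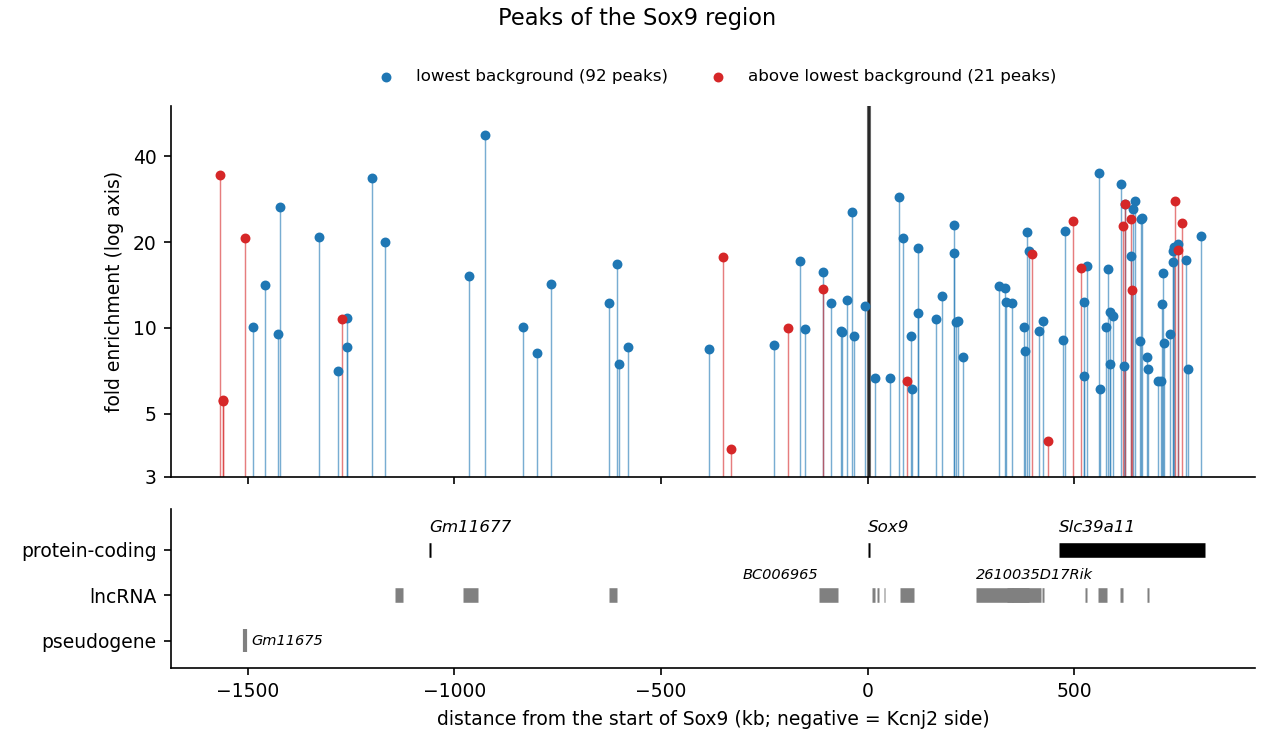
The upper panel gives the fold enrichment of each of the 113 peaks (y axis, log scale) against its distance from the start of Sox9 (x axis, kb), coloured by whether its recovered background is at 6.37 reads, the lowest among peaks whose pileup was recovered as a whole number, or above it; the lower panel gives the genes of the window. The highest point, at 47.6, lies on the Kcnj2 side, and the black bar in the upper panel is Sox9, with no peak on it.

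Background in these peaks is the read number that the caller expected at the summit, the larger of a genome-wide average and of local estimates. Its lowest value among peaks whose pileup was recovered as a whole number, 6.37 reads, was also the most common one and was shared by 92 of the 113 members. The other 21 (18.6%, 95% Wilson interval 12.5% to 26.7%, which covers counting error only) had a higher one, as did 25% of the whole list. Outside genes the share was 8 of 48 in the window (16.7%, interval 8.70% to 29.6%) and 567 of 1677 in the rest of chromosome 11 (33.8%, interval 31.6% to 36.1%).

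Outside genes, the region thus had a smaller share of peaks above the lowest background, and its peaks were also narrower and lower. The gap was smaller for a background of at least 2 times the lowest, with 7 of 48 peaks (14.6%) against 370 of 1677 (22.1%). Median pileups were 90 reads in the window and 132 in the rest of chromosome 11, and median −log10 q was 65.4 against 108. Median fold differed less, 10.6 against 12.1, and the quartiles overlapped widely (8.55 and 17.2 against 8.0 and 19.9). Peaks over 500 bp made up 18.8% of the window's peaks outside genes and 37.0% of the others. No test of these differences was made.

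**Figure D4:**
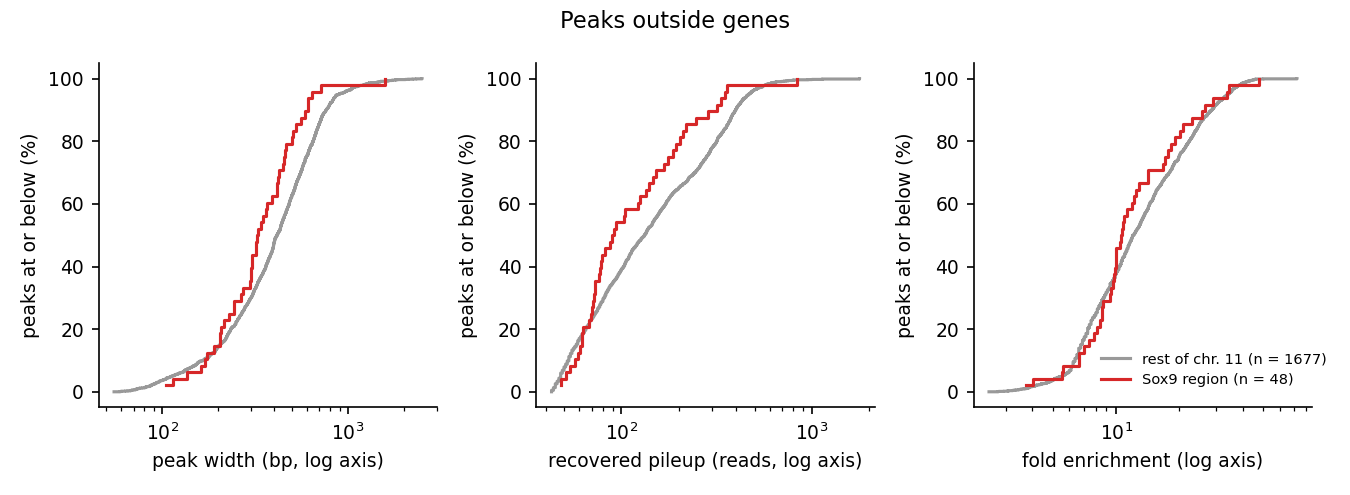
Cumulative share of peaks outside genes (y axis, %) by width (bp), recovered pileup (reads) and fold enrichment, all on log axes, for the 48 peaks of the Sox9 region and the 1677 of the rest of chromosome 11. Apart from the lowest and highest peaks, the curve of the Sox9 region lies mostly to the left for width and pileup, with medians of 327 bp and 90 reads against 415 bp and 132 reads, and the curves for fold lie closer together.

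The density outside genes was 28.3 peaks per Mb in the window and 32.3 in the rest of the chromosome, a ratio of 0.875. Its 95% interval from the Wilson limits of the peak share ran from 0.658 to 1.17. That interval covers counting error only and treats peaks as independent, so it is too narrow where peaks cluster. The kinds of peak parted here. For peaks above the lowest background the ratio was 0.431, and for those at the lowest it was 1.10. The direction also turned when only sequence over 100 kb from protein-coding genes was compared, with 30.0 peaks per Mb in the window and 23.6 elsewhere (ratio 1.27). The difference vanished (1.0) when only protein-coding genes counted as genes. In both of these comparisons lncRNA genes and other noncoding genes counted as outside genes.

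Other deserts give a closer match to this sequence than chromosome 11 as a whole. The whole interval from Kcnj2 to Sox9 is 1.71 Mb long and held 45 peaks, 5 of them before the window. Its 26.4 peaks per Mb lay close to the median of 224 such deserts (23.9, quartiles 18.9 and 29.7). Its peaks were narrow by this measure, with a median of 350 bp, where the quartiles of the deserts were 471 and 543 bp and 6 of 223 others were lower. The share above the lowest background was 31.1% (14 of 45, Wilson interval 19.5% to 45.7%), against a median of 51.4%, and 20 of the 223 were lower.

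On chromosome 11 the desert nearest to it in both measures was that from Igfbp3 to Tns3, with a median width of 363 bp and 31.6% above the lowest background. In the remaining 8 deserts of the chromosome the medians ran from 397 to 609 bp and the shares from 42.1% to 63.8%. The rank by width differed with the peaks admitted. With those of −log10 q of at least 50, the median width from Kcnj2 to Sox9 was 446.5 bp and 10 of 223 deserts were lower. With those of at least 100, it was 591.5 bp, and 98 of 223 were lower.

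**Figure D5:**
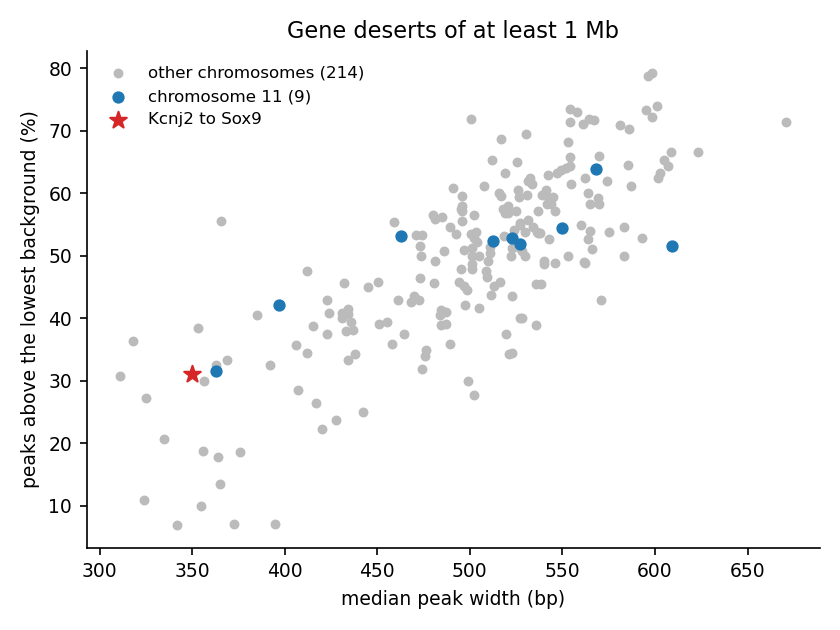
Share of peaks above the lowest background (y axis, %) against the median peak width (x axis, bp) in 224 gene deserts of at least 1 Mb, with those of chromosome 11 in blue and the interval from Kcnj2 to Sox9 as a star. The star lies at 350 bp and 31.1%, at the lower left of the cloud.

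The genes of the window were mostly lncRNA genes. Of 18, 10 held at least 1 peak midpoint (34.5% of lncRNA genes on covered sequence did), and 4 of these 10 lie within Slc39a11 and share its peaks. Another, LOC115487747, shares all 4 of its peaks with 2610035D17Rik. The 34.5% was not matched for gene length. The one nearest to Sox9 on the Kcnj2 side, BC006965, held 3 peaks in 47.4 kb, with a median fold of 13.7. Gm46301, which begins 73.1 kb after Sox9, held 4 in 33.5 kb with a median fold of 7.94, and 2610035D17Rik held 10 in 158 kb. The small lncRNA genes closest to Sox9 on its far side, Gm11681, Gm30562 and 1700012H19Rik, held none.

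Slc39a11 encodes a zinc transporter of the ZIP family and held more peaks than any other gene of the window. Its whole body of 405 kb, part of which lies beyond the window, held 54 peaks, or 13.3 per 100 kb. Among 261 protein-coding genes of 300 to 500 kb, the median was 2.53 per 100 kb (quartiles 1.45 and 4.54), and 6 genes, Slc39a11 included, reached its value. Its 45 members had a median fold of 16.4 and a median width of 418 bp, against 11.1 and 332.5 bp for the other 68. Peaks inside genes in the rest of chromosome 11 had medians of 14.2 and 390 bp, closer to those of Slc39a11. The fullest bin of the region, from 113400000 to 113500000, held 19 peaks, and 21 of the 1163 bins elsewhere on chromosome 11 held as many.

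The window was set by position alone. Its outermost members were the peak at 111215579 (fold 34.3) and the one at 113587690 (fold 21.0), and the nearest peaks left out were at 111189090 (fold 33.1) and 113607626 (fold 8.0).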

How the data were processed

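MBD-seq libraries of 6 chondrocyte cultures (3 Control, 3 cKO) underlie 1 deposited peak list. The submitters' processing notes name fastp, Bowtie2 and MACS2 and the builds mm10 and GRCm38, with no versions or settings. The peak names record a Samtools merge of 3 datasets ahead of calling. Each peak of the deposited file has a fold, the ratio of its reads to the background, and a p-value and q-value, both deposited as −log10. A deposited score repeats the −log10 q, multiplied by 10 and cut to a whole number. The deposited positions are start, end and summit offset. The lowest −log10 q was 20.004, and 1 incomplete last line was left out.

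Pileup and background were solved from fold = (pileup + 1)/(background + 1) and the Poisson p-value. A whole pileup matched within 1% of the spacing for 99.97% of peaks and for every member. The procedure was tested on simulated data. Peaks were placed by midpoint. Genes came from the RefSeq table of GRCm38.p6, and chromosome 11 was taken from its first to its last peak, with assembly gaps included. Gene deserts lie between protein-coding genes other than Gm-numbered and Rik genes. The depth per sample is unknown.

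The planned test of Control against cKO could not be made, since no value belongs to a sample. The members and gene lists were chosen with earlier results of these data known. The genes and peaks named are those of a rule on nearness to Sox9 and on extremes of fold, width, −log10 q and spacing, and list genes with gene-end peaks. Desert, edge and promoter comparisons were added after seeing the data. Python 3.11.15, numpy 2.4.6, pandas 2.3.3, scipy 1.17.1 and matplotlib 3.10.9 were used.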

Additional observations from a re-analysis of the deposited data

How the results depend on the processing

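No paired analysis was possible because no deposited value belongs to a single culture, and leaving out replicates was not possible either. Filtering removes peaks by construction. At a −log10 q of at least 50 the median width was 450.5 bp and the median fold 17.2. At 100, 50 members remained, with 505 bp, a fold of 20.6, 36% above the lowest background, a density ratio outside genes of 0.633 and 37.5 kb from Sox9 to the nearest peak. That ratio turned to 1.0 outside protein-coding genes, to 1.10 at the lowest background and to 1.27 over 100 kb from protein-coding genes, and was 0.431 above the lowest background. Members outside genes had a median fold of 10.6, and 9.73% of all members had a background of at least 2 times the lowest. Of the other deserts, 60.5% had fewer peaks per Mb than the interval from Kcnj2 to Sox9, 2.69% had narrower peaks and 8.97% a lower share above the lowest background. At a −log10 q of at least 50 the 3 figures were 38.1%, 4.48% and 14.3%. At 100 the 3 figures were 17%, 43.9% and 17%. With all protein-coding genes as borders, the interval ending at Sox9 was a shorter one, from Gm11677 to Sox9. Its median width was 320 bp and its share above the lowest background 16%. For that interval the 3 figures were 52.6%, 1.41% and 2.35%. On chromosome 11 alone, the interval from Kcnj2 to Sox9 had 33.3%, 0% and 0%. Beyond the effect of filters and of the changed border, the cause of these changes was not tested. The number of members, placed by summit or by any overlap, stayed at 113, and was 106 after merging within 500 bp.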

Other observations

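The 5 peaks between Kcnj2 and the edge of the window all had a background above the lowest, while 9 of the 40 members on that side did. In the 200 kb next to Kcnj2 itself lay 9 peaks, against 12 in the 200 kb next to Sox9, and between these 2 edges the density was 18.4 peaks per Mb (median of all deserts, 23.0). Deserts beside other Sox genes differed from one another. The interval from Sox2 to Atp11b on chromosome 3 held 39.0 peaks per Mb with a median width of 392 bp and 32.6% above the lowest background. That from Sox11 to Dcdc2c on chromosome 12 held 11 peaks per Mb, 12 in all, with a median width of 505 bp and 41.7% above it.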
